A study of Mus musculus with 6 samples.

Results

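Transcripts of genes that mark blood vessel endothelium or carry angiogenic signals were compared between hearts of mice with a knockout of Cenpf and hearts of wild-type mice. The list held 47 gene names, grouped here by role, and each measured gene was read from the probe annotated with that 1 symbol. Of the 47 names 44 were measured, of 19938 genes with such a probe, and each of the 44 had 1 probe. Selp, the adhesion receptor P-selectin, had no probe of its own, and the names Aplnr2 and Npr3b matched no gene symbol and are given no value.

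Both groups held hearts of 12-month-old untreated mice, 3 Cenpf knockout hearts and 3 wild-type hearts, each on 1 Affymetrix mouse gene array. Cenpf encodes centromere protein F, a protein of the kinetochore that also binds microtubules. The labels used here name no strain or sex, nor which part of Cenpf was removed and in which cells. The replicates are labelled as biological. Precision is limited by how few arrays there are. In whole heart RNA, fewer endothelial cells and less RNA per endothelial cell cannot be told apart.

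Endothelial cells line every vessel of the heart, and in a muscle that runs largely on fatty acids the capillary endothelium also hands lipid and oxygen to the cardiomyocytes. They hold to each other through VE-cadherin, PECAM1 and claudin-5, and their identity is kept by ETS and SOX transcription factors. Vessel growth is steered by VEGF acting on the receptors KDR and FLT1 with neuropilin co-receptors, by angiopoietins acting on TIE2, and by the Notch ligand DLL4, which restrains sprouting through HEY factors.

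The DNA before the start of 3 of these genes is shown because 2 of them, Cldn5 and Kdr, had the smallest p-values among the 44, and Flt1 encodes the other VEGF receptor. Each stretch is the 250 bases before the annotated start in RefSeq (GRCm38.p6), 5′ to 3′ on the gene's strand. Capitals mark the ETS letters AGGAAG or CGGAAG and the RBPJ letters TGGGAA, searched on both strands. RBPJ is the DNA-binding partner of activated Notch.
Cldn5, chr16:18776597-18776846, plus strand: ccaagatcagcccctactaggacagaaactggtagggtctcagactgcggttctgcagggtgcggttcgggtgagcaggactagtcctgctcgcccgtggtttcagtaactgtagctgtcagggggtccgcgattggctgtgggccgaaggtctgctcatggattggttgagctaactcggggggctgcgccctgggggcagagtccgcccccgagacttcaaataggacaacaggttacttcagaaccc
Kdr, chr5:75978456-75978705, minus strand: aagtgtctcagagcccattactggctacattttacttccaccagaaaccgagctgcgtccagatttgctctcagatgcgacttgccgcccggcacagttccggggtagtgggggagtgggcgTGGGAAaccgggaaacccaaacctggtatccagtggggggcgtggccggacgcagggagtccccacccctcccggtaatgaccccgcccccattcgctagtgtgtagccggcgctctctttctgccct
Flt1, chr5:147726012-147726261, minus strand: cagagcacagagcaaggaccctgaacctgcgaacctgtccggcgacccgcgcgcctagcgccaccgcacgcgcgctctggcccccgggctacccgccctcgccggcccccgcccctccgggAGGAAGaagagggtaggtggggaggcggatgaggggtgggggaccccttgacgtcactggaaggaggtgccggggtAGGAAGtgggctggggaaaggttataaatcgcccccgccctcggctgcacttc
The Flt1 stretch held 2 ETS matches, starting 129 and 53 bases before the start, and no RBPJ match. The Kdr stretch held 1 RBPJ match, 128 bases before the start, and no ETS match, and the Cldn5 stretch held neither. In no stretch of a listed gene did matches of the 2 motifs overlap. Stretches of this length were held for 24 of the 44 genes, in 29 windows, since 3 genes had several starts. The ETS letters stood in 14 of the 29 windows (48.3%) and in 39.2% of 32851 windows of all genes. The RBPJ letters stood in 8 of the 29 (27.6%) and in 21.6% of all windows. A match describes the letters alone.

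Cenpf itself read 6.35, 6.10 and 6.68 in the knockout hearts and 8.75, 8.54 and 8.04 in the wild-type hearts, on the log2 scale of the deposited values. It was lower in every heart labelled knockout, by a difference of -2.07 (limma, adjusted p = 0.0286). The labels do not say whether this probe lies in the removed part of the gene. All 12 cardiomyocyte markers, among them Myh6 and Tnnt2, lay above the background level of 6.35, the 95th percentile of 1210 probes for odour and pheromone receptors. All 44 endothelial genes also lay above it. Wild-type replicate 3 stood apart from its group. Across probes above background, its mean correlation was 0.988 with the knockout arrays and 0.980 with the other wild-type arrays, where wild-type replicates 1 and 2 gave 0.976 each with the knockout arrays, and 0.986 each with the other wild-type arrays.

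At an adjusted p under 0.05 (limma, Benjamini-Hochberg over 21789 probes), 0 of the 44 genes were called, while 0.0275% of all probes were, 6 in number. At an unadjusted p under 0.05 there were 6 of the 44 (13.6%), and 9.90% of all probes, 4.66% higher and 5.24% lower. They were Cldn5, Kdr, Hey1 and Nrp2, which read higher in the knockout hearts, and Plvap and Icam2, which read lower. The groups did not overlap for 11 of the 44 (25%), 9 of them higher in the knockout hearts, while 14.8% of all probes were separated like this, 7.33% higher and 7.47% lower. Among 14139 genes with a mean above background, as all 44 had, the same shares were 9.72% for the unadjusted p and 16.1% for groups that did not overlap. The median difference, knockout minus wild-type, was 0.064 over the 44 genes and 0.0078 over the genes above background, and 26 of the 44 read higher in the knockout hearts (59.1%, against 52.0% of the genes above background). The smallest adjusted p among the 44 was 0.379.

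Without wild-type replicate 3, 1 of the 44 was called, Cldn5, as were 1.34% of all probes. At an unadjusted p under 0.05 there were then 8 of the 44 (18.2%), 5 higher and 3 lower, where 15.8% of all probes passed. Cdh5 joined the higher ones and Emcn the lower ones. With any other heart left out 0 of the 44 were called, where the share of all probes called was 0.0275%, 0.0138% and 0.00918% on dropping knockout replicates 1, 2 and 3 in turn, and 0.00459% on dropping either remaining wild-type heart. The unadjusted count was then 7 without knockout replicate 1 (11.2% of all probes), 3 without knockout replicate 2 (7.37%) and 3 without knockout replicate 3 (6.60%). Dropping wild-type replicate 1 left 5 (6.84%), and dropping wild-type replicate 2 left 2 (6.07%). Cldn5 and Kdr passed unadjusted without each heart in turn.

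**Figure D1:**
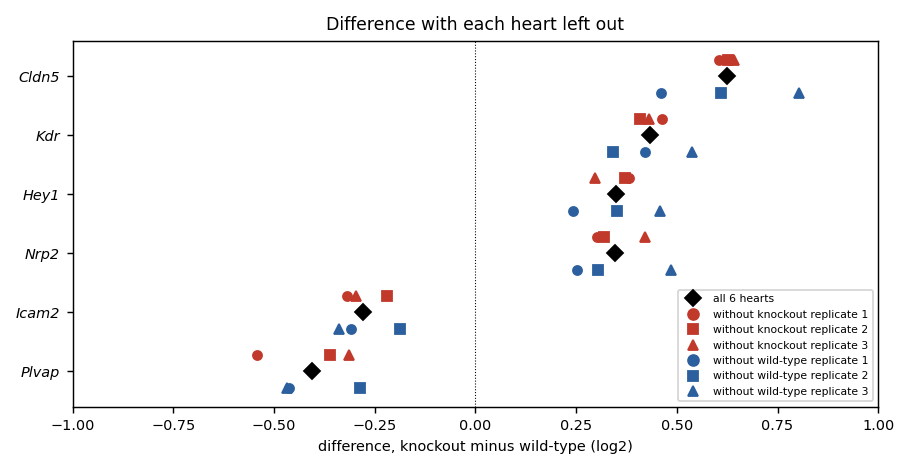
Difference between knockout and wild-type hearts (log2) for the 6 endothelial genes at an unadjusted p under 0.05, with all 6 hearts (black diamonds) and with each heart left out in turn (red, knockout hearts left out, and blue, wild-type hearts left out). All 6 genes keep their sign, and the 4 higher genes lie farthest right without wild-type replicate 3.

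**Figure D2:**
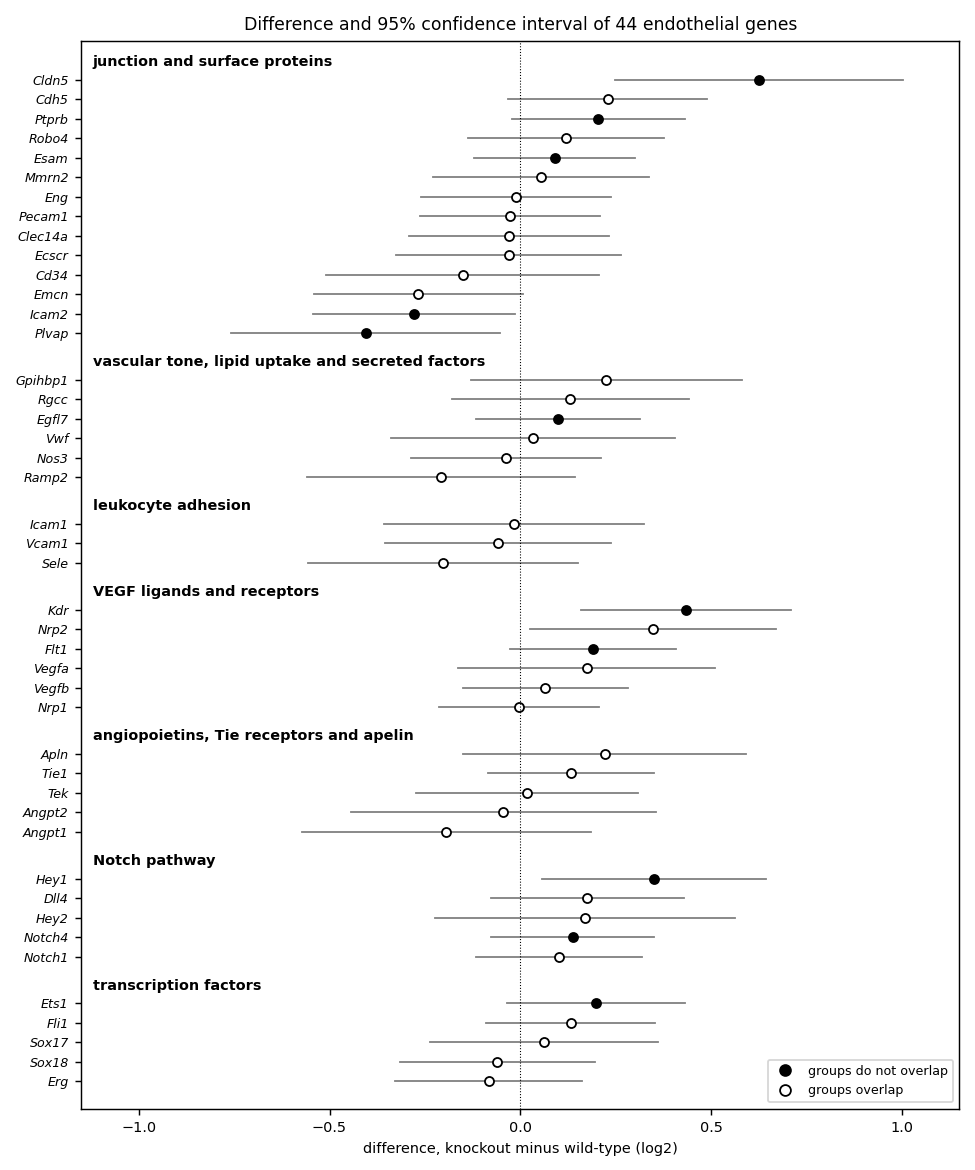
Difference between knockout and wild-type hearts (log2, horizontal axis) for the 44 endothelial genes, ordered by role, with points for the limma estimate and bars for the 95% confidence interval. Filled points mark the 11 genes whose 3 knockout values and 3 wild-type values did not overlap. Cldn5 at 0.62 and Kdr at 0.43 lie farthest right and Plvap at -0.41 farthest left.

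Among 14 genes of endothelial junctions and the cell surface, 6 read higher and 8 lower in the knockout hearts, with a median difference of -0.020. The claudin of endothelial tight junctions, Cldn5 (probe 10434229), read 9.62, 9.57 and 9.54 in the knockout hearts, against 8.62, 8.92 and 9.31 in the wild-type hearts. The knockout values lay within 0.1 of each other, and all were above the wild-type values, of which wild-type replicate 3 was the nearest. The means were 9.58 ± 0.04 in the knockout hearts and 8.95 ± 0.35 in the wild-type hearts (SD, n = 3 each), a difference of 0.62, or 1.54-fold (SE 0.16, limma, adjusted p = 0.379). Permuting the hearts exactly gave a two-sided p = 0.1, which is the lowest value 3 against 3 can reach, as it did for each of the 11 genes whose groups did not overlap. The difference was 0.80 when wild-type replicate 3 was left out (limma, adjusted p = 0.0370) and 0.46 when wild-type replicate 1 was (limma, adjusted p = 0.616).

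VE-cadherin, the adhesion protein that seals endothelial cells to each other, is encoded by Cdh5 (probe 10574438). It read 11.37, 11.56 and 11.48 in the knockout hearts and 11.18, 11.13 and 11.42 in the wild-type hearts. Here wild-type replicate 3 lay above knockout replicate 1, so the groups overlapped. The difference was 0.23 (SE 0.11, limma, adjusted p = 0.542), or 0.32 without wild-type replicate 3. Pecam1 (probe 10392221), which marks nearly all endothelium, read 10.34, 10.22 and 10.09 in the knockout hearts and 10.18, 10.25 and 10.29 in the wild-type hearts. The groups lay across each other, and the difference was -0.027 with a 95% confidence interval of -0.26 to 0.21. The receptor-type phosphatase VE-PTP, encoded by Ptprb, acts on TIE2 and VE-cadherin. It read 10.27, 10.33 and 10.14 in the knockout hearts, above 9.999, 10.12 and 10.01 in the wild-type hearts, a difference of 0.20 (SE 0.10, limma, adjusted p = 0.536). Esam, another junction adhesion molecule, read 10.11, 9.98 and 10.02 in the knockout hearts and 9.96, 9.91 and 9.98 in the wild-type hearts. Its groups did not overlap, but the lowest knockout value and the highest wild-type value both round to 9.98, and the difference was 0.090.

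On the lower side stood Plvap (probe 10579525), whose protein forms the diaphragms of fenestrae and caveolae. It read 8.42, 8.06 and 7.96 in the knockout hearts and 8.44, 8.79 and 8.43 in the wild-type hearts. Knockout replicate 1 came within 0.1 of the lowest wild-type value, while the other knockout hearts lay well under it. The means were 8.15 ± 0.24 in the knockout hearts and 8.55 ± 0.21 in the wild-type hearts (SD, n = 3 each), a difference of -0.41, or 0.755-fold (SE 0.15, limma, adjusted p = 0.472). Without knockout replicate 1 the difference was -0.54 and without wild-type replicate 2 it was -0.29. Icam2 (probe 10392177), an adhesion molecule that resting endothelium carries, read 8.50, 8.30 and 8.45 in the knockout hearts and 8.63, 8.88 and 8.58 in the wild-type hearts. All knockout values lay below all wild-type values, by a difference of -0.28 (SE 0.12, limma, adjusted p = 0.495). The sialomucin endomucin, encoded by Emcn, a marker of capillaries and veins, read 11.85, 11.80 and 11.62 in the knockout hearts and 12.05, 12.18 and 11.84 in the wild-type hearts. Its groups overlapped at knockout replicate 1 and wild-type replicate 3, and the difference was -0.27 (limma, adjusted p = 0.514). The other 6 genes of this role, Cd34, Eng, Clec14a, Mmrn2, Robo4 and Ecscr, had overlapping groups and differences from -0.15 for Cd34 to 0.12 for the guidance receptor gene Robo4. Cd34 differed by -0.25 without wild-type replicate 3 and by -0.31 without knockout replicate 1.

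**Figure D3:**
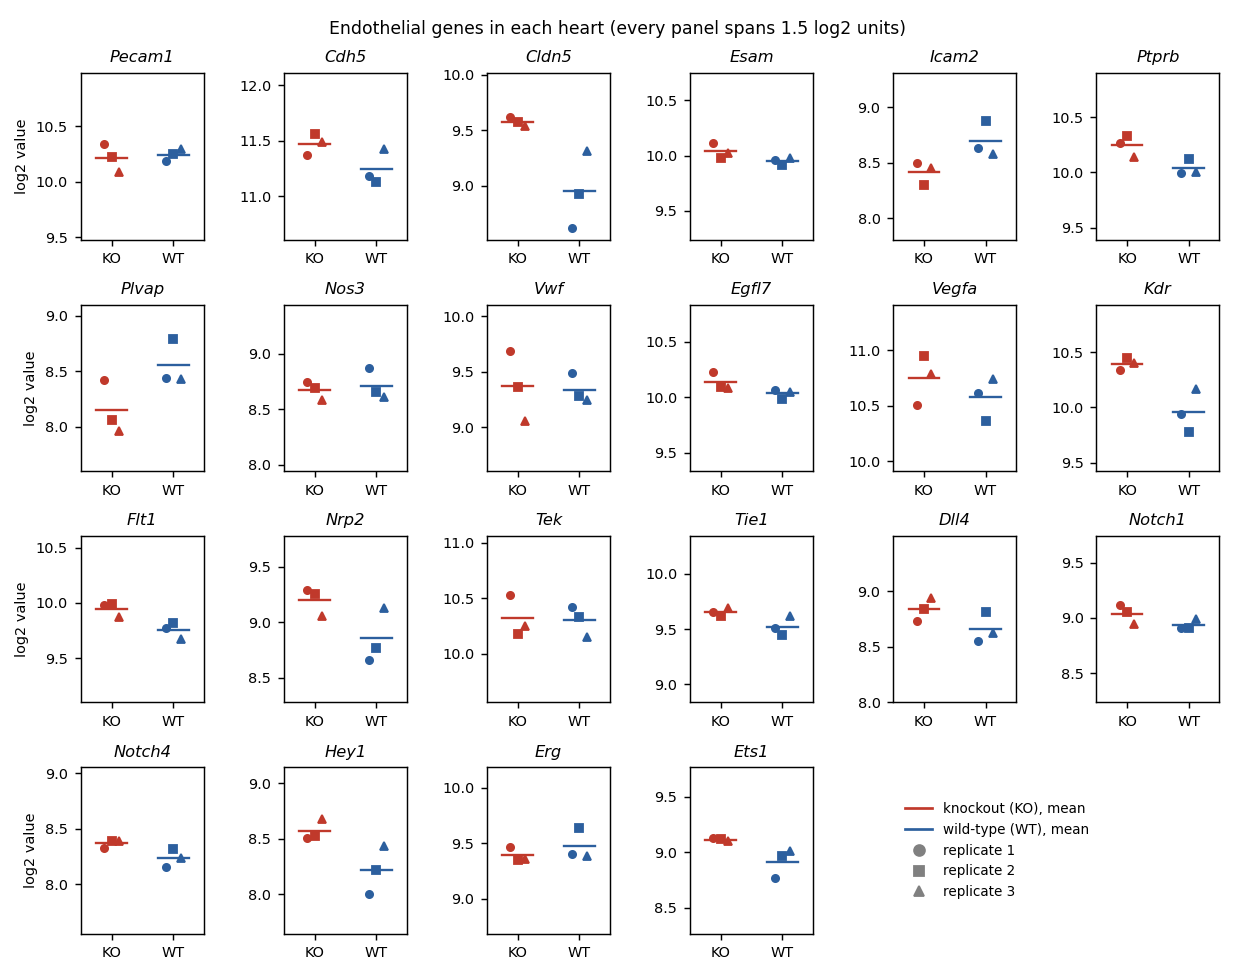
Log2 value in each of the 3 knockout (left, red) and 3 wild-type (right, blue) hearts for 22 endothelial genes, with a line at each group mean and 1 symbol per replicate number. Each panel spans 1.5 log2 units. In Cldn5, Kdr and Hey1 every knockout point sits above every wild-type point, and in these and Nrp2 wild-type replicate 3 is the highest wild-type point.

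Among genes for vascular tone, lipid uptake and secreted factors, 0 of 6 passed the unadjusted threshold, where 9.90% of all probes did. Nos3 (probe 10520126), the endothelial nitric oxide synthase, read 8.75, 8.69 and 8.59 in the knockout hearts and 8.87, 8.65 and 8.61 in the wild-type hearts. The groups overlapped almost wholly, with a difference of -0.038 and a 95% confidence interval of -0.29 to 0.21. Vwf (probe 10541910), the clotting protein stored in endothelial granules, read 9.69, 9.37 and 9.06 in the knockout hearts and 9.49, 9.28 and 9.25 in the wild-type hearts. The knockout hearts held both the highest and the lowest value, and the difference was 0.033 with an interval of -0.34 to 0.40. Egfl7, a secreted protein of endothelium, read 10.23, 10.09 and 10.08 in the knockout hearts and 10.07, 9.99 and 10.05 in the wild-type hearts. The groups did not overlap, but the difference was only 0.099 (limma, adjusted p = 0.748). Gpihbp1, which carries lipoprotein lipase to the capillary lumen, differed by 0.22, Rgcc by 0.13, and Ramp2, part of the adrenomedullin receptor, by -0.21, all with overlapping groups. Without knockout replicate 1, Ramp2 differed by -0.36 and passed the unadjusted threshold. Gpihbp1 differed by 0.35 without wild-type replicate 3, and by 0.12 and 0.11 without wild-type replicate 1 and knockout replicate 1.

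The 3 measured leukocyte adhesion genes, which inflamed endothelium displays, had overlapping groups. Icam1 averaged 8.69 ± 0.25 in the knockout hearts and 8.71 ± 0.17 in the wild-type hearts, and Vcam1 9.33 ± 0.20 in the knockout hearts and 9.38 ± 0.13 in the wild-type hearts. Sele, which encodes E-selectin, averaged 7.20 ± 0.13 in the knockout hearts and 7.40 ± 0.29 in the wild-type hearts (SD, n = 3 each throughout). The differences were -0.016 for Icam1, -0.059 for Vcam1 and -0.20 for Sele, the last with a 95% confidence interval of -0.56 to 0.15. Sele differed by -0.36 without wild-type replicate 1, past the unadjusted threshold, and by -0.067 without wild-type replicate 3. In Icam1 and Vcam1 knockout replicate 1 held the highest of the 6 values.

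Of the VEGF ligands and receptors 5 of 6 read higher in the knockout hearts, where 52.0% of the genes above background did. Their median difference was 0.18. At an unadjusted p under 0.05, 2 of the 6 passed, and 2 of the 6 had groups that did not overlap. These shares were 9.72% and 16.1% among the genes above background. Kdr (probe 10530692), the main signalling receptor for VEGF-A, read 10.34, 10.45 and 10.40 in the knockout hearts and 9.94, 9.78 and 10.17 in the wild-type hearts. All knockout values lay above all wild-type values, with wild-type replicate 3 again the nearest. The means were 10.39 ± 0.06 in the knockout hearts and 9.96 ± 0.20 in the wild-type hearts (SD, n = 3 each), a difference of 0.43, or 1.35-fold (SE 0.12, limma, adjusted p = 0.391). Over the hearts left out in turn the difference was lowest at 0.34, when wild-type replicate 2 was dropped, and highest at 0.54, when wild-type replicate 3 was dropped (limma, adjusted p = 0.0731).

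Flt1 (probe 10535807), the receptor that binds VEGF tightly and signals weakly, read 9.98, 9.99 and 9.87 in the knockout hearts and 9.78, 9.82 and 9.68 in the wild-type hearts. The groups did not overlap, and here wild-type replicate 3 was the lowest value, not the one nearest the knockout hearts. The difference was 0.19 (SE 0.10, limma, adjusted p = 0.544). Of the co-receptors, Nrp2 (probe 10346843), which serves lymphatic and venous endothelium, read 9.29, 9.26 and 9.06 in the knockout hearts and 8.66, 8.77 and 9.13 in the wild-type hearts. Wild-type replicate 3 lay above knockout replicate 3, so the groups overlapped. The difference was 0.35 (SE 0.14, limma, adjusted p = 0.486), and 0.49 without wild-type replicate 3. The other co-receptor gene, Nrp1, averaged 10.79 ± 0.04 in the knockout hearts and 10.79 ± 0.06 in the wild-type hearts (SD, n = 3 each), a difference of -0.0029 with a 95% confidence interval of -0.21 to 0.21.

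The ligand gene Vegfa (probe 10451198) read 10.51, 10.95 and 10.78 in the knockout hearts and 10.62, 10.36 and 10.74 in the wild-type hearts. The groups overlapped, with knockout replicate 1 below 2 of the wild-type hearts, and the difference was 0.17 with an interval of -0.16 to 0.51. Vegfb, a ligand of FLT1 that heart muscle makes in quantity, differed by 0.065. The mean over the 6 genes of this role stood 0.057, 0.17 and 0.077 above its mean over all hearts in the knockout hearts, and at -0.10, -0.19 and -0.014 in the wild-type hearts. These list means did not overlap between the groups. The roles were chosen with earlier results of these data known, so this describes the list and is not a test. Apart from the Notch genes below, the means of the other roles overlapped, as did the mean over all 44 genes.

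Of the 5 genes for angiopoietins, their receptors and apelin 0 passed at an unadjusted p under 0.05 with all hearts, where 9.90% of all probes did. Tek (probe 10505954), which encodes TIE2, read 10.53, 10.18 and 10.25 in the knockout hearts and 10.42, 10.33 and 10.15 in the wild-type hearts. The groups lay across each other, with a difference of 0.018 and a 95% confidence interval of -0.27 to 0.31. The related receptor gene Tie1 (probe 10515771) read 9.65, 9.62 and 9.69 in the knockout hearts and 9.51, 9.44 and 9.62 in the wild-type hearts. Only wild-type replicate 3 reached the knockout hearts, and the difference was 0.13 (SE 0.095, limma, adjusted p = 0.659). The TIE2 agonist gene Angpt1 differed by -0.19, and Angpt2, whose protein mostly opposes it, by -0.045. Apln, which encodes the peptide apelin, differed by 0.22. All 3 had overlapping groups. Angpt1 differed by -0.38 without wild-type replicate 1, past the unadjusted threshold, and by -0.086 without wild-type replicate 3. Apln differed by 0.35 without wild-type replicate 3 and by 0.065 without wild-type replicate 1.

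All 5 Notch pathway genes read higher in the knockout hearts, where 52.0% of the genes above background did, with a median difference of 0.17. At an unadjusted p under 0.05, 1 of the 5 passed, and 2 of the 5 had groups that did not overlap. These shares were 9.72% and 16.1% among the genes above background. Hey1 (probe 10497203), a transcriptional repressor that Notch induces, read 8.51, 8.52 and 8.68 in the knockout hearts and 8.003, 8.22 and 8.43 in the wild-type hearts. The groups did not overlap, and wild-type replicate 3 was the nearest to the knockout hearts. The means were 8.57 ± 0.09 in the knockout hearts and 8.22 ± 0.22 in the wild-type hearts (SD, n = 3 each), a difference of 0.35 (SE 0.13, limma, adjusted p = 0.462). Leaving out wild-type replicate 3 gave 0.46, and leaving out wild-type replicate 1 gave 0.24. The receptor gene Notch4, mostly endothelial, read 8.33, 8.39 and 8.39 in the knockout hearts and 8.16, 8.31 and 8.23 in the wild-type hearts. The groups did not overlap, and the difference was 0.14 (limma, adjusted p = 0.647).

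The ligand gene Dll4 (probe 10474958) read 8.73, 8.84 and 8.94 in the knockout hearts and 8.55, 8.81 and 8.62 in the wild-type hearts, a difference of 0.18. Wild-type replicate 2 lay above knockout replicate 1. The receptor gene Notch1 (probe 10481056) read 9.12, 9.05 and 8.95 in the knockout hearts and 8.91, 8.91 and 8.99 in the wild-type hearts, a difference of 0.10. Wild-type replicate 3 lay above knockout replicate 3. Hey2, which is also expressed in ventricular muscle, averaged 8.24 ± 0.34 in the knockout hearts and 8.08 ± 0.14 in the wild-type hearts (SD, n = 3 each). Its difference was 0.17, and 0.36 without knockout replicate 1, past the unadjusted threshold. The mean over the 5 genes stood at -0.010, 0.15 and 0.14 in the knockout hearts and at -0.21, -0.023 and -0.051 in the wild-type hearts, relative to its mean over all hearts, without overlap. As for the VEGF genes, this describes a list chosen with earlier results known and is not a test.

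Of the 5 genes for transcription factors that hold endothelial identity, 0 passed the unadjusted threshold, where 9.90% of all probes did. Erg (probe 10441093), an ETS factor kept by mature endothelium, read 9.47, 9.35 and 9.36 in the knockout hearts and 9.40, 9.64 and 9.39 in the wild-type hearts. The groups overlapped, and the difference was -0.083 with a 95% confidence interval of -0.33 to 0.16. Ets1, an ETS factor of endothelium and lymphocytes, read 9.12, 9.12 and 9.10 in the knockout hearts and 8.76, 8.97 and 9.01 in the wild-type hearts. The groups did not overlap, with a difference of 0.20 and a standard error of 0.10 (limma, adjusted p = 0.554). Fli1 differed by 0.13, Sox17, a factor of arterial endothelium, by 0.062, and Sox18 by -0.060, with overlapping groups.

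**Figure D4:**
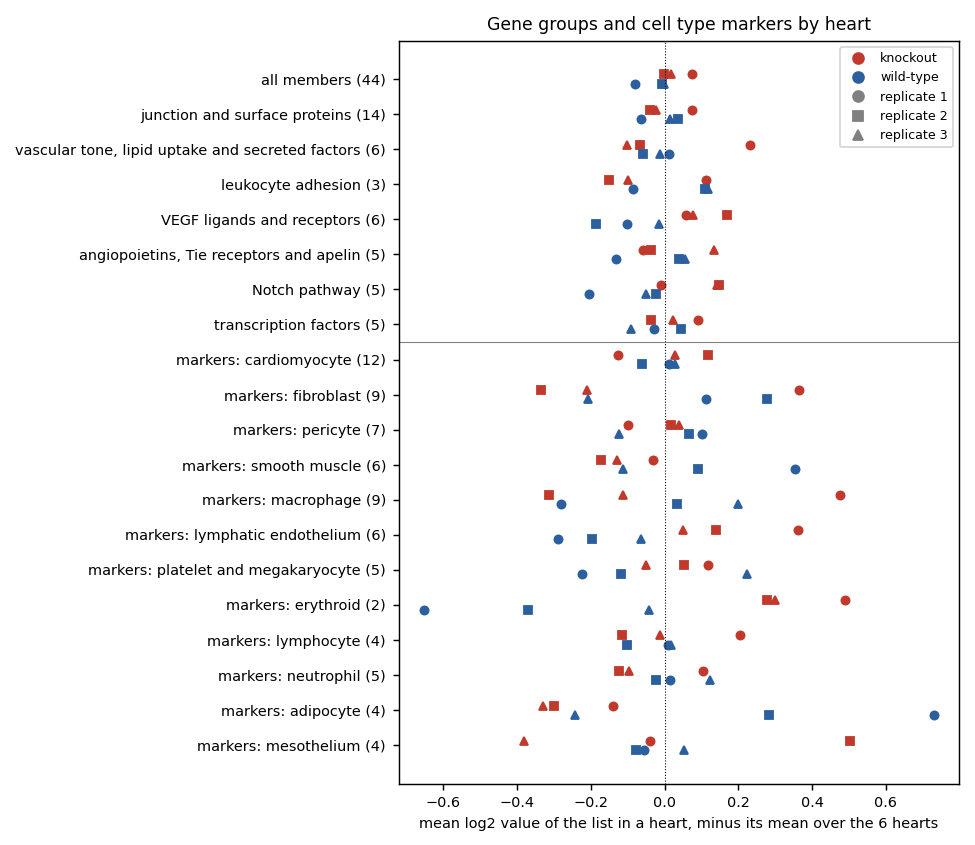
Mean log2 value of each gene group in each heart, minus the group's mean over the 6 hearts, with knockout hearts in red and wild-type hearts in blue and the number of measured genes in brackets. Endothelial roles are above the line and markers of heart cell types below it. Knockout and wild-type hearts separate for the VEGF, Notch, lymphatic and erythroid rows, while macrophage and fibroblast markers are highest in knockout replicate 1.

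Levels of markers of other cell types also differed between the hearts. Of 6 measured lymphatic endothelial markers 3 passed at an unadjusted p under 0.05, all higher in the knockout hearts, namely Flt4, Reln and Mmrn1, against 4.66% of all probes. The other 3 had overlapping groups, with differences of -0.31 for the hyaluronan receptor gene Lyve1, 0.018 for the lymphatic transcription factor gene Prox1 and 0.089 for the podoplanin gene Pdpn. The mean level of the list was 8.60 to 8.91 in the knockout hearts and 8.26 to 8.48 in the wild-type hearts. Flt4 is also counted among the further VEGF genes given below, and Nrp2 serves lymphatic as well as blood vessel endothelium. Both measured erythroid markers, Alas2 and Slc4a1, read higher and passed unadjusted, with mean levels of 9.24 to 9.46 in the knockout hearts and 8.31 to 8.92 in the wild-type hearts. Adipocyte markers read lower for 4 of 4 genes, where 52.0% of the genes above background read higher. Their mean levels were 6.56 to 6.75 in the knockout hearts and 6.65 to 7.62 in the wild-type hearts, where wild-type replicate 3 held the 6.65. The part of these cell types in the endothelial values was not tested.

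Pericytes and smooth muscle cells wrap the vessels. Pericyte markers averaged 9.77 to 9.91 in the knockout hearts and 9.74 to 9.97 in the wild-type hearts. On each side 1 of 7 passed unadjusted, where 4.66% of all probes passed higher and 5.24% lower. Smooth muscle markers averaged 8.26 to 8.40 in the knockout hearts and 8.32 to 8.79 in the wild-type hearts, also with 1 of 6 on each side. The lower one was the actin gene Acta2, which read 11.07, 10.66 and 11.20 in the knockout hearts and 12.96, 12.76 and 11.07 in the wild-type hearts, a difference of -1.28 where the median of the list was -0.10. Its wild-type replicate 3 lay among the knockout hearts. The higher one was the smooth muscle myosin gene Myh11, with 0.32. Cardiomyocyte markers averaged 13.05 to 13.29 in the knockout hearts and 13.11 to 13.20 in the wild-type hearts, and 0 of 12 passed unadjusted. Knockout replicate 1 had the lowest of these cardiomyocyte levels. It had the highest levels of fibroblast markers, 10.63 where the other knockout hearts read 9.93 and 10.06 and the wild-type hearts 10.06 to 10.55. By group means 8 of 9 fibroblast markers read lower in the knockout hearts, where 52.0% of the genes above background read higher. Their median difference was -0.12, and 0 passed unadjusted. In knockout replicate 1 the macrophage markers averaged 10.25, where the other knockout hearts read 9.46 and 9.66 and the wild-type hearts 9.49 to 9.97. The same heart held the highest of the 6 values for 17 of the 44 endothelial genes, Cd34, Icam1, Vcam1, Vwf and Tek among them. Wild-type replicate 1 held the lowest value for 14 of the 44. The same shares over all genes were not computed, so these counts are descriptions.

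Lymphocyte, neutrophil, platelet and mesothelial markers overlapped between the groups in their mean levels. Lymphocyte markers averaged 6.06 to 6.38 in the knockout hearts and 6.07 to 6.19 in the wild-type hearts, around the background level, and neutrophil markers 6.21 to 6.44 in the knockout hearts and 6.31 to 6.45 in the wild-type hearts. Of 5 neutrophil markers 3 had groups that did not overlap, 1 higher and 2 lower, where 14.8% of all probes did. The lower Ngp, with -0.39, passed unadjusted but lay below background. Platelet markers averaged 8.12 to 8.29 in the knockout hearts and 7.95 to 8.39 in the wild-type hearts, and mesothelial markers 6.98 to 7.86 in the knockout hearts and 7.28 to 7.41 in the wild-type hearts.

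Beyond the 44 genes, 106 further genes of vessel growth, identity and function were read from 10 lists of 107 names. These lists were chosen with earlier results of these data known, so their counts are descriptions and not a test. At an adjusted p under 0.05 0 of the 106 were called, and at an unadjusted p under 0.05 there were 25 (23.6%), 23 higher and 2 lower in the knockout hearts, where 9.90% of all probes passed, 4.66% higher and 5.24% lower. Dropping wild-type replicate 3 gave 4 called, all higher, where 1.34% of all probes were called, and 32 unadjusted (30.2%, with 15.8% of all probes). Dropping any other heart gave 0 of the 106 called. Dropping wild-type replicate 1 left 11 unadjusted (10.4%, with 6.84% of all probes), and dropping wild-type replicate 2 left 13 (12.3%, with 6.07%). Dropping a knockout heart left 16 to 20, where 6.60% to 11.2% of all probes passed. The median difference of the 106 genes was 0.099. Of 14 further VEGF, PDGF and FGF genes 4 passed unadjusted, all higher. Fgf2, a growth factor stored in matrix, read 9.18, 9.11 and 9.17 in the knockout hearts and 7.96, 8.14 and 8.77 in the wild-type hearts, a difference of 0.86 (limma, adjusted p = 0.368). The VEGF-D gene, listed under its older symbol Figf, read 8.68, 8.18 and 8.35 in the knockout hearts and 7.13, 7.17 and 7.96 in the wild-type hearts, a difference of 0.98 (limma, adjusted p = 0.368). In both genes wild-type replicate 3 lay between the other wild-type hearts and the knockout hearts. Without it both passed, with differences of 1.10 (limma, adjusted p = 0.00808) for Fgf2 and 1.25 (limma, adjusted p = 0.0213) for the VEGF-D gene.

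Of 12 further Notch pathway genes 4 passed unadjusted, all higher in the knockout hearts, where 4.66% of all probes passed higher. Among them was Notch3, with 0.32, which is also the pericyte marker that read higher. The ligand gene Jag1 read 8.38, 8.43 and 8.36 in the knockout hearts and 8.04, 7.97 and 7.87 in the wild-type hearts. Here wild-type replicate 3 was the lowest of the 6 values, and the difference was 0.43 (SE 0.095, limma, adjusted p = 0.357). Nrarp, a feedback inhibitor that Notch induces, read 7.95, 8.05 and 8.11 in the knockout hearts and 7.22, 7.599 and 7.63 in the wild-type hearts, a difference of 0.55 (limma, adjusted p = 0.368). Both genes had groups that did not overlap.

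Of 17 further transcription factors 4 passed unadjusted, all higher, where 4.66% of all probes passed higher. Those of smallest p were Lmo2 with 0.45 and the flow-responsive Klf4 with 0.37. Of 12 angiogenesis inhibitors and matrix genes 4 passed, all higher, those of smallest p being the metalloprotease gene Adamts1 with 0.34 and the thrombospondin gene Thbs2 with 0.29. Of 11 guidance and sphingosine receptor genes 3 passed, all higher, those of smallest p being Slit3 with 0.53 and the netrin receptor gene Unc5b with 0.27. The Slit3 groups overlapped, wild-type replicate 3 lying above knockout replicate 2. Slit3 differed by 0.74 without wild-type replicate 3 (limma, adjusted p = 0.0379) and was not called on dropping any other heart. Of 10 genes of ALK1, BMP and TGF-beta signalling 0 passed, where 9.90% of all probes did. Those of smallest p were Bmpr2 and Bmp6, with differences of 0.097 and 0.14.

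Among 8 genes of capillary lipid and water transport, Aqp7, a glycerol channel, differed by 0.55 and the fatty acid binding protein gene Fabp5 by -0.49. For Aqp7 wild-type replicate 3 was the wild-type heart nearest the knockout hearts. Aqp7 differed by 0.74 without that heart (limma, adjusted p = 0.0492) and was not called on dropping any other heart. Among 7 arterial genes the elastic fibre gene Fbln5 differed by 0.59 and the Wnt inhibitor gene Dkk2 by -0.26. Among 5 venous genes 0 passed, where 9.90% of all probes did. Ackr1 lay below background in both groups, while the apelin receptor gene Aplnr differed by 0.16. Of 10 measured genes of coagulation and vascular tone 2 passed, both higher, where 4.66% of all probes passed higher. They were Ace, the angiotensin-converting enzyme, with 0.70 and the clotting factor gene F8 with 0.31. The Ace groups overlapped, with wild-type replicate 3 at 10.37 and knockout replicates 2 and 3 at 10.25 and 10.35.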

How the data were processed

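Total RNA of each heart was labelled with biotin and hybridised to 1 array. What was deposited is a table of log2 values, for which the submitters' processing notes name RMA and Partek 6.6. No settings or build are stated in the labels. Array medians of the deposited log2 values lay between 6.92 and 6.97 over 35556 probes, so the values were used as deposited, with no pseudocount and no filter. An array has no read depth.

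Probes were named from the platform annotation table. It gave exactly 1 symbol to 21789 probes and more than 1 to 1621, and left 12146 unnamed here. A gene was read from its probe of highest mean over the 6 arrays. Of the 47 listed names 45 are symbols in the RefSeq gene table (GRCm38.p6).

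The fit was limma 3.58.1 under R 4.3.3 (lmFit, eBayes) on knockout minus wild-type, with p-values adjusted by Benjamini-Hochberg across those 21789 probes. Intervals are 95% from the same fit. The script was tested on simulated data with known changes. Single values also had an exact two-sided permutation test. Values in every heart are given for genes whose groups did not overlap, for those at an unadjusted p under 0.05, and for 12 genes taken whatever their values, with Emcn added after its values were seen. Of each further list the 2 genes of smallest p are named.

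The genes, roles and lists were chosen with earlier results of these data known. The alternatives were 3 normalizations, 2 filters on low signal, averaging the probes of a gene, all probes of the table, 3 variance models, the replicate number as a block, a threshold of 0.1, and each array left out. Figures were drawn with matplotlib 3.10.9.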

Additional observations from a re-analysis of the deposited data

How the results depend on the processing

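The median difference over the 44 endothelial genes kept its direction under every alternative run and lay between 0.051 and 0.086 when 1 heart was left out. With limma, 0 of the 44 genes were called with all hearts under each alternative, and 0 to 1 with 1 heart left out. The count at an unadjusted p under 0.05 was 11 with array weights, against 6. It was 4 to 9 under the other alternatives run with all hearts, and 2 to 8 with 1 heart left out. The share of all probes at this threshold was computed for the plain linear model (8.22%) and for each heart left out, as given above. For the other alternatives it was not computed, so their counts cannot be read against it. The number of probes called over the table was 1 with all probes tested, 22 with the trend and robust model, 33 with array weights, 0 with the plain linear model (1791 at an unadjusted p under 0.05), 11 with the replicate block and 1 to 293 with 1 heart left out, against 6. Same-numbered knockout and wild-type hearts correlated by -0.11, -0.16 and -0.0031 in their deviations from the group means. Hearts of unlike number correlated by -0.02 to 0.14. With 3 hearts a group these values cannot settle whether the numbers pair the hearts. Of 374 recomputed differences of 22 named genes 9 changed sign, all of genes near 0. With array weights Vwf differed by -0.12 and Tek by -0.074. With 1 heart left out, Vwf ranged from -0.13 to 0.19, Tek from -0.086 to 0.089, Nos3 from -0.089 to 0.042 and Pecam1 from -0.089 to 0.037. The causes of these shifts were not tested. The signal of all 44 genes lay above background.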
